A study of Mus musculus with 6 samples.

Results

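The genes described here are the histone and high mobility group (HMG) genes on a mouse expression array, followed across 3 cultured lines of endothelial progenitor cells (EPCs). They were chosen by name, as every probe whose gene name on the array begins with HIST and a digit, H2AF, H3F3, H1F, HMGA, HMGB or HMGN. The choice was made with earlier results of these data known. The rule found 77 gene names with 89 probes, among 18138 gene names and 25697 probes in all. The lines could be compared for 23 of the 89 probes (22 genes), because only these exceeded background (detection p-value under 0.05) on each of the 2 arrays of some line. That is 25.8% of the members, beside 9.08% of all probes (2333 probes).

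All 3 lines came from the lung of athymic nude mice, from cells sorted as Flk-1+, c-Kit+ and CD45-, and grew in an endothelial medium with serum. EPC was the sorted line itself at passage 3 to 6. EPC_acLDL, also at passage 3 to 6, had been labelled with fluorescent acetylated low density lipoprotein (acLDL), a particle that endothelial cells take up, and only the cells that took it up were replated. EPC_Late was the acLDL-selected line carried to passage 16 to 20, so that it differs from EPC in both selection and passage and from EPC_acLDL in passage. Each line was a single culture line hybridized to 2 arrays. The study describes 2 independent experiments, run in duplicate, but does not say how the 2 arrays of a line relate to them. Whether those arrays came from separate cultures is therefore not settled, so that the p-values may measure technical spread only. In RNA from whole cultures, fewer cells expressing a gene and less RNA per cell cannot be told apart. The comparisons ask how the profile of these lines changed with selection and with long culture.

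The 6 arrays had median intensities of 304.6 to 358.7, and 2177 to 2365 probes per array lay above background. Of all 25697 probes, 22811 lay above background on no array, so that a gene at background here is not shown to be absent. Of the 15 endothelial marker genes on the array, Kdr, which encodes Flk-1, lay above background on all 6 arrays, and Pecam1, Cdh5, Tek, Tie1 and Vwf lay above background on none. The other marker lists were as sparse, with Col1a2 of 9 fibroblast and mesenchymal genes, Acta2 of 4 smooth muscle genes, Cdh1 of 5 epithelial genes and Csf1r of 6 blood cell genes above background, and Ptprc, which encodes CD45, at background on every array. The summed intensity of the 22 endothelial probes was 6701 to 7423 on the EPC arrays, 6710 to 7478 on the EPC_acLDL arrays and 7240 to 7810 on the EPC_Late arrays. That of the 11 fibroblast and mesenchymal probes was 3425 to 3745, 3433 to 3899 and 3778 to 4074 in the same order. Differences below are on the log2 scale after background correction and normalization, as the first line named minus the second. Signs follow the labels of the deposited columns, and for H3f3a, E2f1 and Tyms, which the study lists as changed, they are the opposite of the directions listed there in both comparisons with EPC_Late. The H3f3a differences did not pass the test, so that its direction is not settled. Of the 5 marker genes above background only Col1a2 passed a test, with a log2 difference of 0.43 for EPC_Late against EPC (limma with Benjamini-Hochberg adjustment, adjusted p = 0.0470). Its part in the results below was not tested.

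Histones package DNA. An octamer of the core histones H2A, H2B, H3 and H4 holds each turn of DNA in the nucleosome, and the linker histone H1 binds where the DNA enters and leaves. The replication-dependent copies, named Hist1, Hist2 and so on, lie in gene clusters, are transcribed mostly in S phase, and give mRNAs that end in a stem-loop in place of a poly(A) tail. The replacement variants, such as H2A.Z and H3.3, are made throughout the cell cycle from ordinary polyadenylated mRNAs. HMG proteins bind chromatin without forming nucleosomes: HMGA proteins bind AT-rich DNA, HMGB proteins bend DNA, and HMGN proteins bind the nucleosome itself. The labelling kit used for these arrays primes cDNA from poly(A) tails, so that a signal from a cluster gene is a signal from RNA that could be primed in this way.

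Detection differed between the families, as a description of these arrays, on which 22811 of all 25697 probes never rose above background. Among the cluster genes, 4 of 15 H2A probes, 6 of 16 H2B probes and 4 of 12 H3 probes could be compared, while all 11 H4 probes lay at background on every array, with intensities of 246.3 to 419.5. Of the linker histones 2 of 11 probes could be compared, of the H2A variants 2 of 5, and of the H3 variants 1 of 3. Of the HMG genes the array measured few: 2 of 5 HMGA probes, both for Hmga1, 1 of 7 HMGB probes and 1 of 4 HMGN probes. Hmgb1, Hmgb2, Hmga2 and H3f3b stayed at background on all 6 arrays, and the compared HMGB probe was Hmgb2l1, whose current symbol is Hmgxb4 and which is a relative and not one of the classical HMGB proteins. Further probes of Hist2h3c1, Hmga1, H3f3a and Hmgb2l1 lay at background on all 6 arrays. Just inside the detection rule, Hmgb2l1 had intensities of 435.8 to 500.8. Just outside it lay Hist1h2ak, above background on 1 array of each line at 433.6 to 505.0, and Hmgb4, above background on a single array of EPC_acLDL. In all, 18 member probes lay above background on all 6 arrays and 64 on none.

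Because replication-dependent H2A and H2B genes often sit head to head and share one short promoter, the sequences upstream of some of the members that moved are given first: the pair described next, and then examples of H2B and H2A genes called in at least 1 comparison. They are the RefSeq promoters of GRCm38.p6. All 77 names matched a RefSeq gene, 12 by symbol and 65 by an older name, and 68 of them have a promoter in the table. Capitals mark the octamer ATTTGCAT or its reverse complement ATGCAAAT, the letters CCAAT or ATTGG, and the letters TATAAA or TTTATA, searched on both strands in the 200 bases before each start; no match overlaps another in the sequences printed. The first sequence is the whole interval between the starts of Hist1h2ah, on the minus strand, and Hist1h2bk, on the plus strand (chr13:22035644-22035820, 177 bases, plus strand), printed because it is the only head-to-head pair here with both genes compared.
Hist1h2ah and Hist1h2bk: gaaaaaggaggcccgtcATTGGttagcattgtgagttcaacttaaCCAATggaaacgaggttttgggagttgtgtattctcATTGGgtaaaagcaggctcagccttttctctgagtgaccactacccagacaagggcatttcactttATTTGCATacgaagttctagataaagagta

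The next sequences are the 200 bases before the start of Hist1h2bm (chr13:21721844-21722043, plus strand), which was higher in EPC_Late than in EPC_acLDL, and of Hist1h2bf (chr13:23574208-23574407, minus strand) and Hist1h2bn (chr13:21753876-21754075, plus strand), which were lower in EPC_Late than in EPC. The last is that of Hist2h2ac (chr3:96220881-96221080, minus strand), an H2A gene of a smaller cluster on chromosome 3. All are written 5′ to 3′ on the strand of the gene.
Hist1h2bm: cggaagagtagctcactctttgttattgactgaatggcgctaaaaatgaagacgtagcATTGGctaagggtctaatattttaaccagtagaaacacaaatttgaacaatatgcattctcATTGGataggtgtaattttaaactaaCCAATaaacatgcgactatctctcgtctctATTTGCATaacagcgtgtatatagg
Hist1h2bf: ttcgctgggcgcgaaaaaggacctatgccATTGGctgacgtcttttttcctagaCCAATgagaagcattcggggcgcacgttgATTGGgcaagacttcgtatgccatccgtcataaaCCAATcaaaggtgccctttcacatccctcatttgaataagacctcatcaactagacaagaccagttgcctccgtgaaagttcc
Hist1h2bn: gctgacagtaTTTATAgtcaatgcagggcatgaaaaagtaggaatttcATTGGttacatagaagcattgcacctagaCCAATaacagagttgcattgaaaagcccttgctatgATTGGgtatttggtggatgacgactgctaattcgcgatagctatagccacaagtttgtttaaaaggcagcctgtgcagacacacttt
Hist2h2ac: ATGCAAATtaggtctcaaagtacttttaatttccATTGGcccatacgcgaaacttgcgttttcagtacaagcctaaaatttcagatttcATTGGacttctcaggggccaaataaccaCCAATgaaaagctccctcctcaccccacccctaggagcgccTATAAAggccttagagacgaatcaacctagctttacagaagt

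The octamer, the binding site of Oct factors and a known element of H2B promoters, was found in 16 of the 68 members with a promoter (23.5%) and in 1.38% of all 32851 promoters of the table. It occurred in 7 of 15 cluster H2A and 7 of 12 cluster H2B promoters, in H3f3b of the variants and Hmga1 of the HMG genes, and in none of the cluster H3, cluster H4 and H1 promoters. Among the 6 compared H2B genes, Hist1h2bk and Hist1h2bm hold it, beginning 30 and 25 bases before the start, and Hist1h2bf, Hist1h2bh, Hist1h2bj and Hist1h2bn do not hold these letters in the window. CCAAT or ATTGG was found in every cluster H2A and cluster H2B promoter (15 of 15 and 12 of 12), in 75% of member promoters and in 29.3% of all. TATAAA or TTTATA was found in 35.3% of member promoters and in 9.96% of all. The member shares count genes, each once if any of its promoters held the letters, and count both genes of a head-to-head pair. The shares of all count single promoters, so that the units differ.

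Most compared histone and HMG probes did not pass the test. Those that did were mainly cluster H2A and H2B genes, which gave 4 and 6 of the 23 compared probes. Under other settings H2afz, Hist1h3d and Hist2h3c1 also passed in both comparisons with EPC_Late, under 6, 5 and 5 of 9 alternatives. Hist1h2bf was lower in EPC_acLDL than in EPC. In EPC_Late, Hist1h2bf, Hist1h2bh, Hist1h2bn, Hist1h2ah and a probe of Hmga1 were lower than in EPC, and Hist2h2ac and Hist1h2ao were higher. Against EPC_acLDL, Hist1h2bj, Hist1h2bk, Hist1h2bm, Hist2h2ac and Hist1h2ao were higher in EPC_Late, and Hist1h2ah and the Hmga1 probe were lower.

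Counted over all 23 compared probes, 10 passed the threshold in at least 1 comparison, as did 29.4% of all probes tested. Between EPC_acLDL and EPC, 1 was lower and 0 were higher by limma, while 6 had an unadjusted p below 0.05, all lower, beside 9.52% of all probes that were lower at that unadjusted threshold. In that comparison 3.3% of all probes tested were called, 1.93% higher and 1.37% lower. Between EPC_Late and EPC, 7 were called, 2 higher and 5 lower, beside 23.9% of all probes (10.9% higher and 13% lower). Between EPC_Late and EPC_acLDL, 7 were called, 5 higher and 2 lower, beside 20.9% of all probes (9.34% higher and 11.5% lower). With the arrays shifted to a common 75th percentile in place of quantile normalization, this last split was 2 higher and 4 lower, beside 502 of all probes called, while the median of all probes moved to -0.15. These shares are the background for the members' counts, no test of the members as a set was run, and the 2 comparisons with EPC_Late share its arrays. Among the members called, Hist1h2ah, Hist1h2ao and a probe of Hmga1 were not above background on every array, so that they could enter the test through the line in which they were high. With only the 1686 probes above background on all 6 arrays, an alternative chosen after the data were seen, 18 members were tested and 1, 8 and 8 were called in the order above, beside 99, 486 and 446 of all probes.

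**Figure D1:**
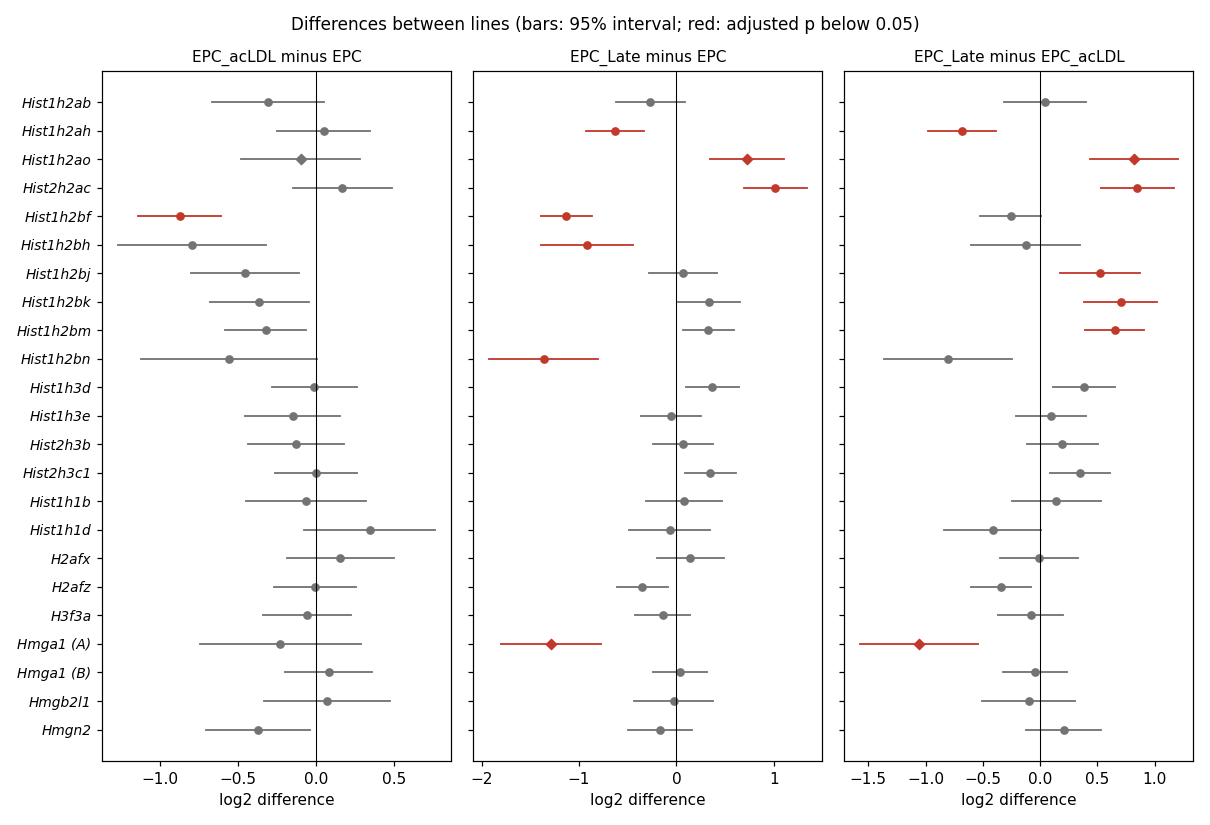
Log2 difference (horizontal axis) of each compared probe in the 3 comparisons, with bars for the 95% interval of the limma fit, red where the adjusted p was below 0.05 and diamonds where a line was at background on both arrays; each panel has its own horizontal range. Hist1h2bf was called between EPC_acLDL and EPC, and 7 probes were called in each comparison with EPC_Late.

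The sizes of the differences can be set beside those of all probes. The median log2 difference of the members was -0.10, -0.03 and 0.04 in EPC_acLDL against EPC, EPC_Late against EPC and EPC_Late against EPC_acLDL, beside 0.01, 0.01 and 0.00 for all probes. The median absolute difference was 0.16, 0.33 and 0.34 for the members and 0.19, 0.25 and 0.23 for all probes. The replicate arrays of a line differed by a median SD of 0.08 to 0.10 for the members and 0.10 to 0.12 for all probes.

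**Figure D2:**
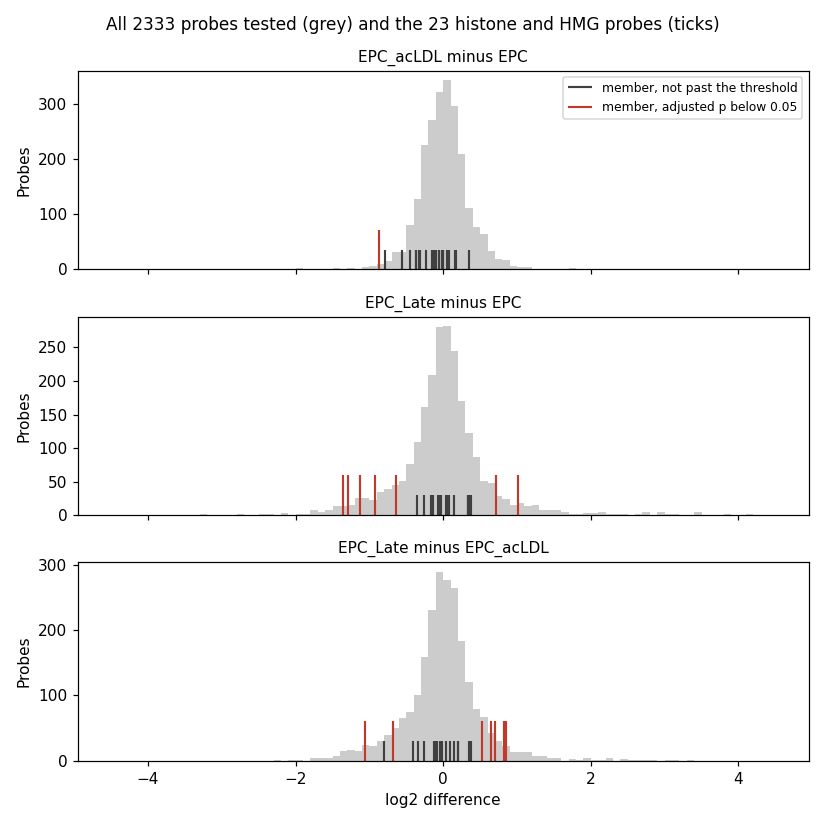
Number of all 2333 probes tested (grey bars, vertical axis) by log2 difference (horizontal axis) in each comparison, with a tick for each of the 23 histone and HMG probes, red where the adjusted p was below 0.05. The member ticks lie within the spread of all probes in each comparison.

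The H2B genes gave the largest set of values. H2B pairs with H2A to form the dimers on the flanks of the nucleosome core, and the cluster copies encode nearly the same protein. Intensities are given in the order of the arrays, replicate 1 and then replicate 2.

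Hist1h2bf was lower in EPC_acLDL and in EPC_Late than in EPC, and the part of selection in this was not tested. Its intensity was 1367.6 and 1266.8 in EPC, 947.1 and 937.7 in EPC_acLDL, and 825.4 and 815.8 in EPC_Late. No arrays overlapped between lines, with both EPC arrays highest and both EPC_Late arrays lowest. The normalized level was 10.01 ± 0.07 in EPC, 9.13 ± 0.01 in EPC_acLDL and 8.88 ± 0.02 in EPC_Late (log2, SD, n = 2 each). EPC_acLDL lay below EPC by a log2 difference of -0.87 (SE 0.11, limma, adjusted p = 0.0137), which is 1.83-fold. EPC_Late lay below EPC by -1.13 (SE 0.11, limma, adjusted p = 0.00096), which is 2.19-fold, and this call held with any 1 array left out (highest adjusted p = 0.00982). The call between EPC_acLDL and EPC was lost without either EPC array (-0.81 and -0.92, limma adjusted p = 0.0848 and 0.0633) and without either EPC_acLDL array (-0.86 and -0.87, limma adjusted p = 0.136 and 0.137). The step from EPC_acLDL to EPC_Late was -0.26 and did not pass (limma, adjusted p = 0.170).

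Hist1h2bn and Hist1h2bh were likewise lower in EPC_Late than in EPC. Hist1h2bn read 697.1 and 821.8 in EPC, 687.8 and 667.3 in EPC_acLDL, and 492.2 and 583.5 in EPC_Late, with the EPC_Late arrays lowest. Its difference between EPC_Late and EPC was -1.36 (SE 0.23, limma, adjusted p = 0.00758), which is 2.57-fold, and held with any 1 array left out. It was -0.62 with no background correction. Against EPC_acLDL it was -0.80 and did not pass (limma, adjusted p = 0.0564), but it passed under the shift to the 75th percentile (-0.93), with an offset of 50 and no detection p-values in the correction (-0.51) and with no background correction (-0.33), with limma adjusted p = 0.0185, 0.0306 and 0.0232. Hist1h2bh read 725.3 and 878.5 in EPC, 687.4 and 628.3 in EPC_acLDL, and 625.5 and 615.6 in EPC_Late, so that both EPC arrays lay above the other 4. EPC_Late lay below EPC by -0.92 (SE 0.20, limma, adjusted p = 0.0173), a call lost without EPC replicate 2 (-0.70, limma adjusted p = 0.0696), EPC_Late replicate 1 (-0.99, limma adjusted p = 0.0642) or EPC_Late replicate 2 (-0.85, limma adjusted p = 0.0935). It was -0.48 with no background correction. The difference of Hist1h2bh between EPC_acLDL and EPC was -0.80 (SE 0.20, limma, adjusted p = 0.0904).

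The other H2B genes ran differently, with normalized means lowest in EPC_acLDL and highest in EPC_Late. Hist1h2bk, the partner of Hist1h2ah in the pair printed above, read 2673.3 and 2359.5 in EPC, 2634.9 and 2234.1 in EPC_acLDL, and 3478.7 and 3231.9 in EPC_Late. Both EPC_Late arrays lay above the other 4, and the EPC and EPC_acLDL intensities overlapped before normalization. EPC_Late exceeded EPC_acLDL by 0.70 (SE 0.13, limma, adjusted p = 0.0132), which is 1.63-fold. Hist1h2bm read 1237.8 and 1246.2 in EPC, 1194.7 and 1194.5 in EPC_acLDL, and 1509.7 and 1467.0 in EPC_Late, with an increase of 0.65 from EPC_acLDL to EPC_Late (SE 0.11, limma, adjusted p = 0.00822). Hist1h2bj read 1447.6 and 1336.3 in EPC, 1348.9 and 1165.1 in EPC_acLDL, and 1528.2 and 1394.8 in EPC_Late. It rose by 0.52 from EPC_acLDL to EPC_Late (SE 0.14, limma, adjusted p = 0.0469), close to the threshold, and this call was lost with no detection filter and with only the 4 arrays compared (limma, adjusted p = 0.131 and 0.0665). It overlapped between EPC and EPC_Late (0.07). None of Hist1h2bk (0.34), Hist1h2bm (0.33) and Hist1h2bj passed between EPC_Late and EPC (limma, adjusted p = 0.124, 0.0757 and 0.803). Hist1h2bm passed there under 5 of 9 alternatives, among them the detection p-value under 0.01 (limma, adjusted p = 0.0173), and Hist1h2bk under 2 of 9.

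These 3 increases depended on the scaling and on single arrays. Under the shift to the 75th percentile, the median of all probes tested moved to 0.16 for EPC_acLDL against EPC and to -0.15 for EPC_Late against EPC_acLDL, and the increases became 0.53, 0.40 and 0.28 for Hist1h2bk, Hist1h2bm and Hist1h2bj (limma, adjusted p = 0.0662, 0.0675 and 0.340). Hist1h2bj was then -0.02 between EPC_Late and EPC, so that EPC_Late was no longer its highest line. Without EPC_acLDL replicate 1 or replicate 2 all 3 calls were lost. Their values were then 0.80 and 0.62 for Hist1h2bk, 0.65 and 0.66 for Hist1h2bm, and 0.66 and 0.38 for Hist1h2bj (limma, adjusted p of 0.0507 to 0.222). Hist1h2bk also lost the call without EPC_Late replicate 1 (0.62), and Hist1h2bj without either EPC_Late array (0.45 and 0.62) or either EPC array (0.51 and 0.52).

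All 6 H2B probes had a negative difference between EPC_acLDL and EPC, from -0.32 to -0.87, with normalized values that did not overlap between these lines, so that EPC_acLDL was the lower, as for 11 of the 23 members and 24.8% of all probes tested. Of the 6, 1 passed the test, beside 3.3% of all probes. With no background correction Hist1h2bf, Hist1h2bh, Hist1h2bj, Hist1h2bk and Hist1h2bm passed and Hist1h2bn did not, beside 273 of all 2333 probes called. Under the shift to the 75th percentile all 6 remained negative, from -0.15 to -0.78. The plot of H2B and H2A probes by line shows both patterns.

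**Figure D3:**
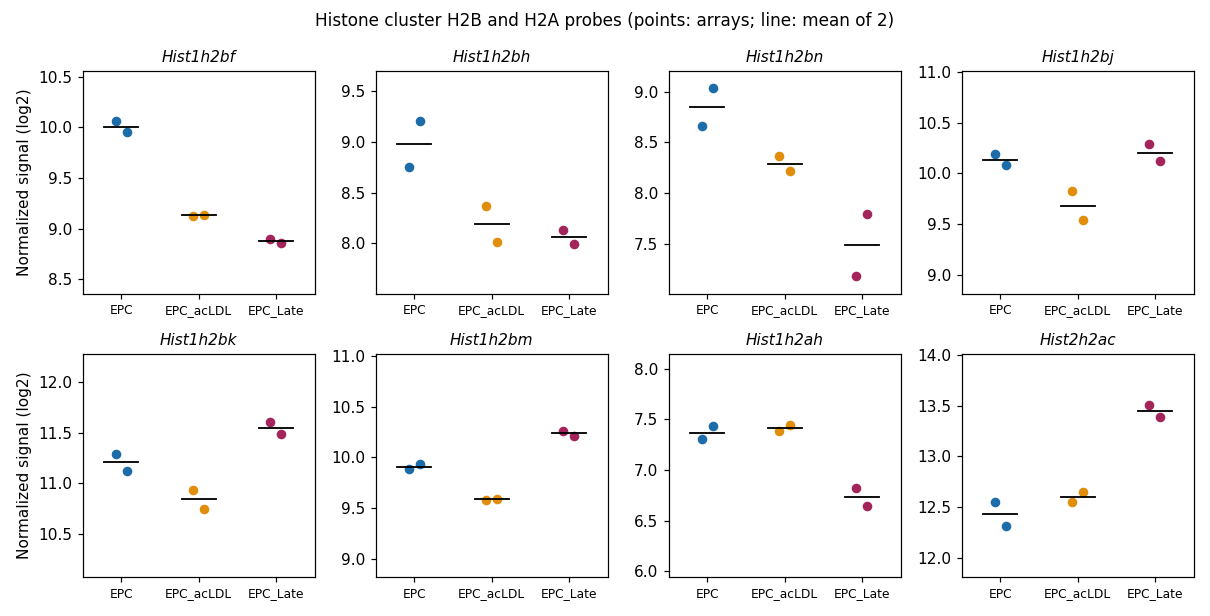
Normalized log2 signal (vertical axis) of 6 H2B and 2 H2A probes in the 3 lines (horizontal axis), with 1 point per array and a line at the mean of the 2 arrays; each panel has its own vertical range. Hist1h2bf, Hist1h2bh, Hist1h2bn and Hist1h2ah were lower in EPC_Late than in EPC, Hist2h2ac was higher, and Hist1h2bj, Hist1h2bk and Hist1h2bm were lowest in EPC_acLDL.

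Of the H2A genes, Hist2h2ac rose in the high-passage line. H2A carries the surface patch of the nucleosome to which many chromatin proteins bind. Hist2h2ac read 5921.7 and 5039.9 in EPC, 7176.6 and 7425.4 in EPC_acLDL, and 10988.5 and 10295.1 in EPC_Late, so that both EPC_Late arrays lay above the other 4. The normalized level was 12.43 ± 0.17 in EPC, 12.60 ± 0.07 in EPC_acLDL and 13.45 ± 0.09 in EPC_Late (log2, SD, n = 2 each). EPC_Late exceeded EPC by 1.02 (SE 0.13, limma, adjusted p = 0.00266), which is 2.02-fold, and this held with any 1 array left out. EPC_Late exceeded EPC_acLDL by 0.85 (SE 0.13, limma, adjusted p = 0.00692), which is 1.80-fold, and this call was lost only without EPC_acLDL replicate 1 (0.81, limma adjusted p = 0.0558). The difference between EPC_acLDL and EPC was 0.17 and did not pass (limma, adjusted p = 0.530).

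Hist1h2ah, which shares its upstream interval with Hist1h2bk, ran the other way at a low signal. It read 461.7 and 500.0 in EPC, 502.4 and 540.2 in EPC_acLDL, and 455.3 and 454.0 in EPC_Late, where only 1 of the 2 arrays lay above background. EPC_Late lay below EPC by -0.63 (SE 0.12, limma, adjusted p = 0.0126) and below EPC_acLDL by -0.68 (SE 0.12, limma, adjusted p = 0.0118). With no background correction these were -0.20 and -0.22. Between EPC_acLDL and EPC_Late, Hist1h2ah was thus called lower and Hist1h2bk higher, from starts 178 bases apart. The size for Hist1h2ah is not settled, since its EPC_Late mean includes an array at background. The calls of Hist1h2ah were lost without EPC_Late replicate 2 (-0.54 and -0.59). That against EPC was also lost without EPC replicate 2 (-0.58), and that against EPC_acLDL without either EPC_acLDL array (-0.70 and -0.65), with limma adjusted p of 0.0622 to 0.0787 without an EPC_acLDL or EPC_Late array and 0.0620 without the EPC array.

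Hist1h2ao was above background only in EPC_Late, at 464.2 and 519.0, and read 373.3 and 415.5 in EPC and 369.1 and 416.1 in EPC_acLDL. A fold against a line at background is given as a bound, set by the lowest signal that counted as above background on each array. It rests on the means of the 2 arrays without their spread, and holds on the background-corrected scale only. On that scale Hist1h2ao was at least 1.21-fold higher in EPC_Late than in EPC (limma, adjusted p = 0.0187) and at least 1.27-fold higher than in EPC_acLDL (limma, adjusted p = 0.0142). The fitted differences of 0.72 and 0.82 on the log2 scale were 0.23 and 0.26 without background correction, which is less than both bounds, so that the size of the difference is not settled. The first call was lost without either EPC array (0.66 and 0.81), EPC_acLDL replicate 2 (0.71) or EPC_Late replicate 2 (0.54), and the second without either EPC_acLDL array (0.77 and 0.84) or EPC_Late replicate 2 (0.64). Hist1h2ab, at 429.2 to 486.1 over the 6 arrays, gave -0.31, -0.27 and 0.04 in EPC_acLDL against EPC, EPC_Late against EPC and EPC_Late against EPC_acLDL and passed in none.

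No H3 or linker histone probe passed the test in any comparison, although some H3 probes did under other settings. H3 carries the long tail on which much of the regulatory methylation and acetylation is placed. Hist1h3d read 24476.0 and 22631.7 in EPC, 28088.6 and 28279.5 in EPC_acLDL, and 27319.7 and 26794.5 in EPC_Late, and Hist2h3c1 read 23475.5 and 22716.6, 27370.8 and 27274.7, and 26264.4 and 26735.9. Before normalization both were therefore lowest in EPC and highest in EPC_acLDL. After quantile normalization, which sets such bright probes by their rank, their differences were -0.01 and 0.00 between EPC_acLDL and EPC and 0.38 and 0.35 between EPC_Late and EPC_acLDL (limma, adjusted p = 0.0598 and 0.0705 for the latter). Under the shift to the 75th percentile the latter were -0.05 and -0.04, so that their direction is not settled. Between EPC_Late and EPC they were 0.37 and 0.35 and, under the shift, 0.13 and 0.12. Both passed in both comparisons with EPC_Late when no background correction was made (limma, adjusted p of 0.00139 to 0.00166) or when the offset was 50 and the detection p-values were not used (limma, adjusted p of 0.0138 to 0.0175). They also passed among probes with a detection p-value under 0.01 (limma, adjusted p of 0.0157 to 0.0172), among those above background on all 6 arrays (limma, adjusted p of 0.0338 to 0.0387) and with robust limma-trend. They did not pass under the shift, with no detection filter, with the replicate number as a block or with only the 4 arrays compared. Hist1h3e and Hist2h3b stayed between -0.15 and 0.19 in the 3 comparisons. Of the linker histones, which compact the fibre between nucleosomes, Hist1h1b gave -0.06, 0.08 and 0.14 in EPC_acLDL against EPC, EPC_Late against EPC and EPC_Late against EPC_acLDL, and Hist1h1d gave 0.35, -0.07 and -0.42 at intensities of 424.5 to 509.5.

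**Figure D4:**
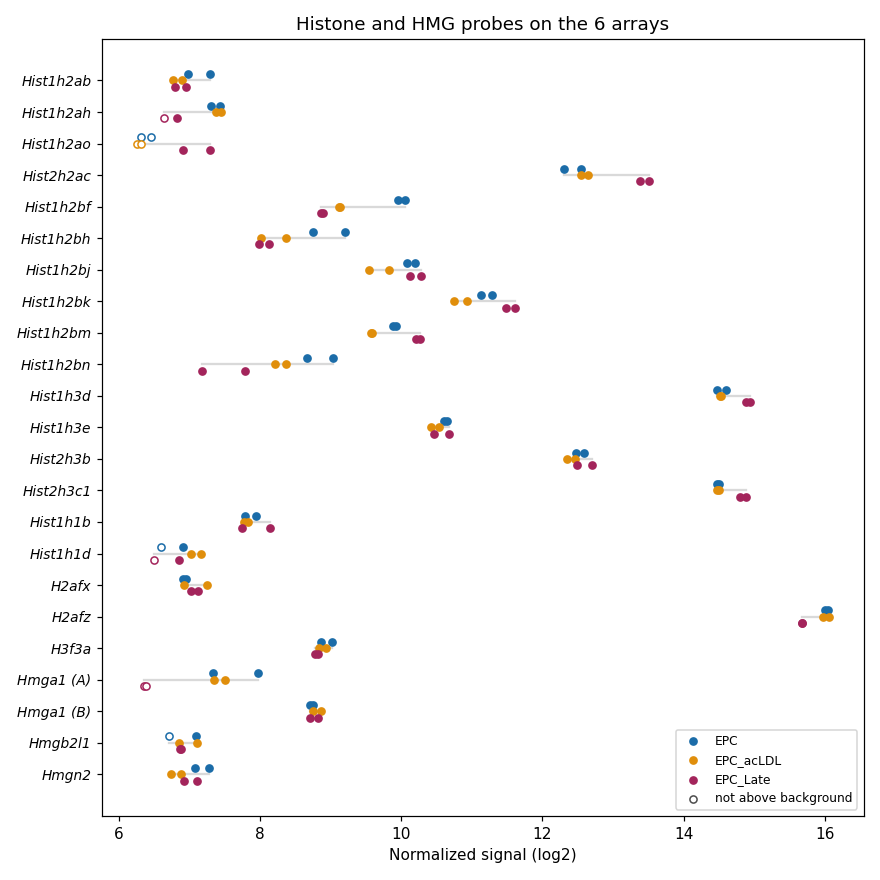
Normalized log2 signal (horizontal axis) of the 23 compared histone and HMG probes (vertical axis), 1 point per array, coloured by line, with open circles for arrays on which the probe was not above background. The Hist1h2ao circles are open in EPC and EPC_acLDL, and those of Hmga1 probe A are open in EPC_Late.

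The variants that replace core histones outside S phase were measured by 3 probes. H2afz encodes H2A.Z, which marks nucleosomes at active and poised promoters. Its probe read 64605 and 66182 in EPC, 68319 and 69541 in EPC_acLDL, and 47025 and 46319 in EPC_Late, so that both EPC_Late arrays lay below the other 4. The highest intensity on each array was between 70723 and 71993, so that the EPC and EPC_acLDL values lay near the top of the range, and whether the probe was saturated there is not recorded. The EPC_Late level differed by -0.35 from EPC and by -0.34 from EPC_acLDL, neither past the threshold (limma, adjusted p = 0.0648 and 0.0749). Under the shift to the 75th percentile both passed, at -0.57 and -0.56 (limma, adjusted p = 0.0155 and 0.0173). With the differences themselves unchanged, both also passed among probes with a detection p-value under 0.01 (limma, adjusted p = 0.0153 and 0.0183) and among those above background on all 6 arrays (limma, adjusted p = 0.0356 and 0.0410). Both passed too with no background correction (limma, adjusted p = 0.00138 and 0.00184) and with robust limma-trend (adjusted p = 3.4e-06 and 5.0e-06). Neither passed with no detection filter, with the replicate number as a block or with only the 4 arrays compared. Quantile normalization set this bright probe by its rank, and both EPC_Late arrays received the same value, 15.67.

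H3f3a encodes H3.3, the variant deposited at transcribed genes and at heterochromatin independently of replication. It read 758.9 and 813.7 in EPC, 839.9 and 865.8 in EPC_acLDL, and 792.7 and 788.3 in EPC_Late. The differences were -0.06, -0.14 and -0.08 in EPC_acLDL against EPC, EPC_Late against EPC and EPC_Late against EPC_acLDL (limma, adjusted p = 0.841, 0.479 and 0.700). The 95% interval of the difference between EPC_Late and EPC ran from -0.42 to 0.14. A further H3f3a probe, at 311.2 to 392.6, lay at background. H2afx, the variant phosphorylated at DNA breaks, gave 0.16, 0.14 and -0.01 in the same order and passed in none.

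Among the HMG genes 1 probe changed. Hmga1 had a pair of compared probes. Probe A, ILMN_2715802, read 466.0 and 575.0 in EPC, 497.9 and 548.2 in EPC_acLDL, and 409.7 and 431.8 in EPC_Late, where it was not above background on either array. On the background-corrected scale Hmga1 by probe A was at least 1.82-fold lower in EPC_Late than in EPC (limma, adjusted p = 0.00667), a call that held with any 1 array left out. It was at least 1.55-fold lower than in EPC_acLDL (limma, adjusted p = 0.0163), a call lost without either EPC_acLDL array (-1.11 and -0.98) or either EPC_Late array (-1.04 and -1.08), with limma adjusted p of 0.0780 to 0.108. The fitted differences of -1.29 and -1.06 on the log2 scale had 95% intervals of -1.80 to -0.77 and -1.57 to -0.54, which reach smaller falls than the bounds. Without background correction the differences were -0.43 and -0.34, which is less than both bounds, so that the size of the fall is not settled. Probe B, ILMN_3105657, read 720.1 and 719.0 in EPC, 849.0 and 820.8 in EPC_acLDL, and 758.4 and 802.7 in EPC_Late. Its differences were 0.08, 0.03 and -0.05 in EPC_acLDL against EPC, EPC_Late against EPC and EPC_Late against EPC_acLDL, and its 95% interval between EPC_Late and EPC ran from -0.24 to 0.31. The probes of Hmga1 thus disagreed, and a change of the gene as a whole cannot be given. Hmgn2 gave -0.37, -0.17 and 0.20 and Hmgb2l1 gave 0.07, -0.03 and -0.10, none past the threshold.

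Genes that work with histones were described through 3 lists. Of 25 chaperone and histone supply genes on the array, 3 could be compared (Anp32a, Nasp and Npm1). Nasp, a chaperone that carries histones and protects the reserve of H3 and H4, read 1061.2 and 1143.0 in EPC, 1774.3 and 1577.8 in EPC_acLDL, and 867.7 and 932.3 in EPC_Late. Of the 3 probes it was the only one called in either comparison with EPC_Late, lower in both, beside 13% and 11.5% of all probes called lower. It fell by 0.63 from EPC to EPC_Late (limma, adjusted p = 0.0117) and by 1.15 from EPC_acLDL to EPC_Late (limma, adjusted p = 0.00167), and its 0.52 between EPC_acLDL and EPC did not pass (limma, adjusted p = 0.0778). Anp32a passed in none, and neither did Npm1, whose probe read 68492 to 71836, at or near the highest intensity on each array. Slbp, which binds the histone stem-loop, lay at background on all arrays.

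Of 41 genes for histone modifiers and readers on the array, 9 were compared with 11 probes. In EPC_Late against EPC 2 of the 11 probes were called higher and 0 lower, beside 10.9% and 13% of all probes. In EPC_Late against EPC_acLDL 1 was called higher and 0 lower, beside 9.34% and 11.5% of all probes. The list's median was 0.19 and 0.04 in these comparisons. Setdb1, which methylates H3 at lysine 9, was higher in EPC_Late than in EPC by 0.86 (limma, adjusted p = 0.00393) and than in EPC_acLDL by 0.62 (limma, adjusted p = 0.0163). Jmjd1a, which removes that methylation, was at background on both EPC arrays and on the background-corrected scale at least 1.25-fold higher in EPC_Late (limma, adjusted p = 0.0213). The 95% interval of its fitted log2 difference, 0.24 to 0.82, reaches below that bound. Jmjd1a could enter the test through the lines in which it was high, so that its call is less certain.

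Of 29 S phase and proliferation genes on the array, 5 could be compared, and 3 of these fell in EPC_Late against both other lines, beside 13% and 11.5% of all probes lower. E2f1, a transcription factor of S phase entry, read 9435.2 and 8821.3 in EPC, 12609.4 and 12106.1 in EPC_acLDL, and 4548.9 and 4395.2 in EPC_Late. Its differences were -1.14 against EPC and -1.34 against EPC_acLDL (limma, adjusted p = 0.00095 and 0.0008). The study lists E2f1 and Tyms in the other direction in both comparisons. Tyms, which makes thymidylate, gave -1.25 and -1.38 (limma, adjusted p = 0.00097 and 0.00094), and Birc5, a mitotic protein, gave -1.01 and -0.88 (limma, adjusted p = 0.00311 and 0.00719). Cenpa (0.04 and -0.23) did not pass, nor did Cdc20, which was not above background on either EPC_Late array (limma, adjusted p = 0.0757 against EPC). The list's median was -1.01 and -0.88, beside 0.01 and 0.00 for all probes. Among the cluster histone probes in the same comparison with EPC, Hist1h2bf, Hist1h2bh, Hist1h2bn and Hist1h2ah were lower and Hist2h2ac and Hist1h2ao were higher, and the part of proliferation in these values was not tested.

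The deposited file gives no probe sequences. Cluster histone genes differ little in their coding parts, so that a probe named for one copy may also have read its near-identical relatives, and the values of single copies are uncertain to that extent.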

How the data were processed

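RNA of 3 lines was measured on 6 MouseRef-8 v2.0 arrays of 1 chip, 2 per line. In BeadStudio, with local background correction left at its default, the authors averaged the beads of a probe and deposited linear intensity values that were not normalized. Beside each stands a deposited detection p-value, which ranks the probe among the negative controls. In R 4.3.3 with limma 3.58.1, neqc estimated the background from the detection p-values, added an offset of 16, and quantile normalized the log2 values. The 2333 probes above background (detection p-value under 0.05) on each array of some line were fitted together (lmFit and eBayes, all 6 arrays, no covariate), with Benjamini-Hochberg adjustment over them and a threshold of 0.05. The methods' two-tailed t-test and the alternatives given at the end were run on the same table. The number of arrays limits the precision. Samples were grouped by their titles.

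The members and gene lists were chosen with earlier results of these data known. Every compared member is accounted for: values on every array are given for each member past the threshold and for H3f3a, and the others by range or difference, with probes of a gene kept apart. Gene names are those of the array design, matched to a RefSeq table of GRCm38.p6, and the authors name no genome build. The authors' clustering in GeneSpring was not repeated. The fitting steps were tested on simulated data, where the share of unchanged probes among the calls was above the nominal level, mostly through probes not above background on every array. Calls of such probes are therefore less certain than their adjusted p.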

Additional observations from a re-analysis of the deposited data

How the results depend on the processing

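No called difference of a named member changed sign under any alternative, but the sizes at low signal depended on the background correction. Without it, EPC_Late against EPC was -0.20 for Hist1h2ah, 0.23 for Hist1h2ao, -0.48 for Hist1h2bh, -0.62 for Hist1h2bn and -0.43 for Hmga1 probe A, beside -0.63, 0.72, -0.92, -1.36 and -1.29. With an offset of 50 and no detection p-values they were -0.36, 0.43, -0.68, -0.92 and -0.76. Hist2h2ac moved from 1.02 to 0.97 without background correction. The counts of members called were 1 in EPC_acLDL against EPC, 7 in EPC_Late against EPC and 7 in the remaining comparison. They became 2, 11 and 11 with an offset of 50 and no detection information, 5, 12 and 11 with no background correction, and 4, 12 and 11 with robust limma-trend. Calls over all probes rose from 557 to 639, 681 and 693 in EPC_Late against EPC, and from 487 to 575, 610 and 631 in EPC_Late against EPC_acLDL. The split of EPC_Late against EPC was then 5 higher and 6 lower, 6 and 6, and 6 and 6. A detection p-value below 0.01 gave 3, 8 and 8 of 15 members tested, beside 173, 582 and 518 of 1230 probes. The methods' t-test gave 2, 7 and 9 unadjusted, of which 1, 3 and 5 were among the limma calls, beside 355, 585 and 568 of all probes, and 0, 0 and 0 after Benjamini-Hochberg adjustment. With 1 array left out the counts ran from 0 to 1, from 4 to 7 and from 0 to 6. The count for EPC_Late against EPC was 4 without EPC replicate 2 or EPC_Late replicate 2, and over all probes 557 calls fell to 370 without EPC_Late replicate 1. That for EPC_Late against EPC_acLDL was 0 without EPC_acLDL replicate 1, 1 without replicate 2, and 4 without either EPC_Late array, when all probes called fell from 487 to 203, 228, 278 and 302. The count for EPC_acLDL against EPC was 0 without any 1 of the 4 arrays compared. A lone array left in a line was taken to vary like the other lines. Over all probes the 77 calls between EPC_acLDL and EPC became 164 with the offset of 50 and no detection p-values, 273 without background correction, 138 with the shift to the 75th percentile, 281 with limma-trend, 50 without a filter, 173 at the lower detection p-value, 35 with 4 arrays, 1 by the adjusted t-test, and 9 to 36 with 1 array left out. The adjusted t-test gave 15 and 11 in the late comparisons. Under the shift to the 75th percentile 13 of the members' differences, none of them called, changed sign. The cause of these changes was not tested.

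The labels number the arrays 1 and 2 in each line but give no pairing, and the deviations of same-numbered arrays correlated by 0.08, 0.02 and 0.03. With the replicate number as a block, 1, 7 and 8 members were called, the added call being Hist1h2bn between EPC_Late and EPC_acLDL (-0.80, limma adjusted p = 0.0461), beside 43, 547 and 458 of all probes.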
